A study of Saccharomyces cerevisiae with 72 samples.

Results

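Yhp1-13A is a form of the budding yeast transcriptional repressor Yhp1 in which the 13 sites that the cyclin-dependent kinase Cdk1 can phosphorylate have been mutated. The response of Saccharomyces cerevisiae mRNA to 60 min of its induction was measured in 12 of the 72 RNA-seq libraries of the series, which covers 8 strains. An inducible and a control strain were each sampled without estradiol (0 min) and once cells had spent 60 min in 1 uM of it, 3 libraries to a group. Both strains were MATa haploids with ura3∆0, his3∆1, lyp∆0 and can1∆::STE2pr-SpHIS5. Both also carried HAP1+::NatMX::pACT1-Z3EV-ENO2term, in which the ACT1 promoter drives Z3EV, an artificial activator that estradiol switches on. In the inducible strain (YMC231) the Z3EV-responsive promoter was placed in front of the tagged allele, as URA3::Z4pr-yhp1-13A-3V5-KanMx. In the control strain (YMC229) the same promoter drove HO instead (URA3::Z4pr-HO), while yhp1-13A-3V5-KanMx stayed under its own promoter. The control cells therefore also carried the mutant allele, at native expression, and no strain of this pair lacked it. Each genotype was represented by 1 strain, grown asynchronously in rich medium.

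Yhp1 and its paralog Yox1 are homeodomain proteins that bind DNA next to Mcm1, a MADS-box factor. At early cell cycle boxes this pair of repressors is known to switch off genes of the M/G1 interval, among them genes for the replicative helicase. Mcm1 is also the partner of the forkhead factor Fkh2 at genes of mitosis, and of other factors at genes of the a mating type and at genes induced by mating pheromone. Cdk1 drives the cell cycle and phosphorylates many transcription factors, so a form without its sites shows what the repressor does when this input is missing.

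After induction of the mutant protein a short list of mRNAs fell, led by PRY1, YRO2 and the a-factor gene MFA2, and a shorter one rose, with AGA1 and FUS1 of the pheromone response in it. The measure is a subtracted log2 difference: the change from 0 to 60 min in the inducible strain minus the change in the control strain, on log2 of TPM plus 1, TPM being transcript abundance scaled to gene length and library total. A gene was called when its Benjamini-Hochberg adjusted p from limma was under 0.05 and its difference exceeded 0.58 on the log2 scale, a 1.49-fold change. With HO, URA3 and YHP1 set apart as genes of the constructs, 56 of 6227 genes fell (0.899%) and 9 rose (0.145%), and 823 of all 6230 genes tested had an unadjusted p under 0.05. The fit had a block for the replicate number within each time. Without that block 29 genes fell and 0 rose, with 218 genes at an unadjusted p under 0.05, so the 9 higher calls rest on pairing the libraries by number. The median over all tested genes was 0.05. Taken replicate by replicate, the strain difference at 60 min lay below that at 0 min in every combination for 56 of the 56 lower genes, against 5.51% of all genes, and above it for 9 of the 9 higher genes, against 10.8%. The genes were called on these same libraries, so this separation restates the call. The 56 lower genes had a median of -0.86 and 22 of them passed 1 log2 unit, while the 9 higher genes had a median of 0.78 and 3 passed 1.

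Sequences upstream of 6 called genes are shown because they hold the letters known for both partners close together. The search took the 500 bases from 101 to 600 bases before the start codon, on both strands. The homeodomain core was searched as TAATTA and also in a second form that ends with TTG in place of TTA. The outer letters of the Mcm1 box were searched as a CC and, 6 bases further on, a GG, with at most 15 bases from core to box. This spacing rule was chosen after the files had been seen. The capitals mark the core and the box, and each sequence is written along its gene's strand in the R64 build of the genome. At NCA3 the core lies on the other strand and so reads in reverse.
PRY1, lower, chrX:291219-291279, minus strand: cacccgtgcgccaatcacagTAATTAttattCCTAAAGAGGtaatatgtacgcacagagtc
BNS1, lower, chrVII:951486-951545, plus strand: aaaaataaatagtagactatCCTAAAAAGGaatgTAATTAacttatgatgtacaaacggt
SPI1, lower, chrV:468040-468096, plus strand: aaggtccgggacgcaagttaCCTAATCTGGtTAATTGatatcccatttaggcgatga
NCA3, lower, chrX:195294-195350, minus strand: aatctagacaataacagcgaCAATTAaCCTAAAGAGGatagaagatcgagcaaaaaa
MFA1, lower, chrIV:1384926-1384981, plus strand: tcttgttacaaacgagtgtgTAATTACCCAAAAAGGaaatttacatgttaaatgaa
AGA2, higher, chrVII:437086-437141, minus strand: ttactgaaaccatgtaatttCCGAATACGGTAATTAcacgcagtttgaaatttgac
The bases between core and box numbered 5 at PRY1, 4 at BNS1, 1 each at SPI1 and NCA3 and 0 at MFA1 and AGA2. The pair of letter groups was found upstream of 5 of the 53 lower genes with a window (9.43%), 1 of the 8 higher genes (12.5%) and 140 of 5707 tested protein-coding genes (2.45%). Either core alone was found at 36 of 53 lower genes (67.9%) against 48.2% of all windows, and the letters of the Mcm1 box at 43 of 53 (81.1%) against 53.7%. A forkhead core, GTAAACA or ATAAACA, was found at 13 of 53 (24.5%) and at 23.9% of all windows. These matches describe letters in a window and are not measured binding sites.

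The constructs behaved as their labels state. YHP1 mRNA in the inducible strain stood at 21.6, 19.9 and 22.2 TPM before estradiol and at 809, 737 and 914 TPM after 60 min. In the control strain it was 48.2, 37.4 and 47.2 TPM before and 51.3, 42.9 and 46.2 TPM after. The inducible strain thus started below the control, by 1.02 on the log2 scale, and ended far above it, and the subtracted difference was 5.12 (SE 0.11, adjusted p = 4.81e-21). HO, the gene of the mating type endonuclease, served as the control cargo, and the paper's methods call it non-functional. HO mRNA went from 8.70, 5.09 and 4.37 to 463, 470 and 394 TPM in the control strain. In the inducible strain HO stayed at 31.7, 13.2 and 19.3 TPM before and 21.8, 16.9 and 18.1 TPM after. URA3, the marker that lies beside the inducible promoter, rose in both strains, by 2.41 in the inducible and 2.30 in the control, and its subtracted difference was 0.12 (SE 0.11, adjusted p = 0.71).

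PPN1, which codes for a polyphosphatase, is the divergent neighbour of YHP1 and lies 696 bases away on the side of the inserted promoter. It was called lower, at -0.86 (SE 0.11, adjusted p = 6.38e-06), and its value with wild type Yhp1 under the same promoter was -0.63. Whether the insertion has a part in this was not tested. The other neighbours of YHP1 and HO were not called, with RPS18A at 0.13, SSB1 at -0.15 and GCS1 at 0.19. GEA2 and TIM9, at 0.02 and -0.34, were not called either. They flank the native URA3 locus, which is deleted in both strains, and so do not lie beside an inserted promoter.

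A functional HO enzyme cuts the mating type locus. Although the paper calls the HO gene used here non-functional, markers of cell type were read in all 12 libraries. Genes of the a type were present throughout, with the alpha-factor receptor STE2 at 489 to 706 TPM, the a-factor exporter STE6 at 47.3 to 74.9 and the protease BAR1 at 75.7 to 193 TPM. Of the alpha type genes, MF(ALPHA)1 lay at 0 to 1.34 TPM, STE3 at 1.02 to 3.41, MF(ALPHA)2 at 5.81 to 11.3 and SAG1 at 15.1 to 23.0 TPM. None of the 3 alpha-specific genes tested was called. The libraries resembled each other, each with 6189 to 6290 genes over 1 TPM and a correlation of 0.993 to 0.995 with its nearest library, across genes. TPM keep no record of sequencing depth, so the counting error behind each value is unknown.

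The mRNA that fell furthest was PRY1, for a secreted sterol-binding protein of the CAP family. In the inducible strain PRY1 stood at 252, 349 and 342 TPM before and at 52.5, 69.3 and 73.5 TPM after 60 min. In the control strain it stood at 99.5, 167 and 156 TPM before and at 188, 239 and 292 TPM after. All 3 induced libraries thus lay below every other library, and the starting level of the inducible strain lay above that of the control. The subtracted difference was -3.03 (SE 0.13, adjusted p = 1.55e-14), an 8.16-fold difference. The other members of the CAP family, PRY2 and PRY3, were not called, at -0.06 and -0.52.

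YRO2, for a plasma membrane protein related to the heat shock protein Hsp30, came next. It fell from 40.7, 95.1 and 84.3 to 10.3, 12.2 and 10.1 TPM in the inducible strain. In the control it was 15.8, 55.4 and 44.6 TPM before and 38.9, 58.6 and 40.5 TPM after. The induced libraries did not overlap with any other group, and the subtracted difference was -2.96 (SE 0.21, adjusted p = 2.37e-10). Its paralog MRH1 was called at -0.77, from 1220, 1252 and 1196 to 804, 818 and 817 TPM in the inducible strain. HSP30 itself was not called, at -0.45.

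**Figure D1:**
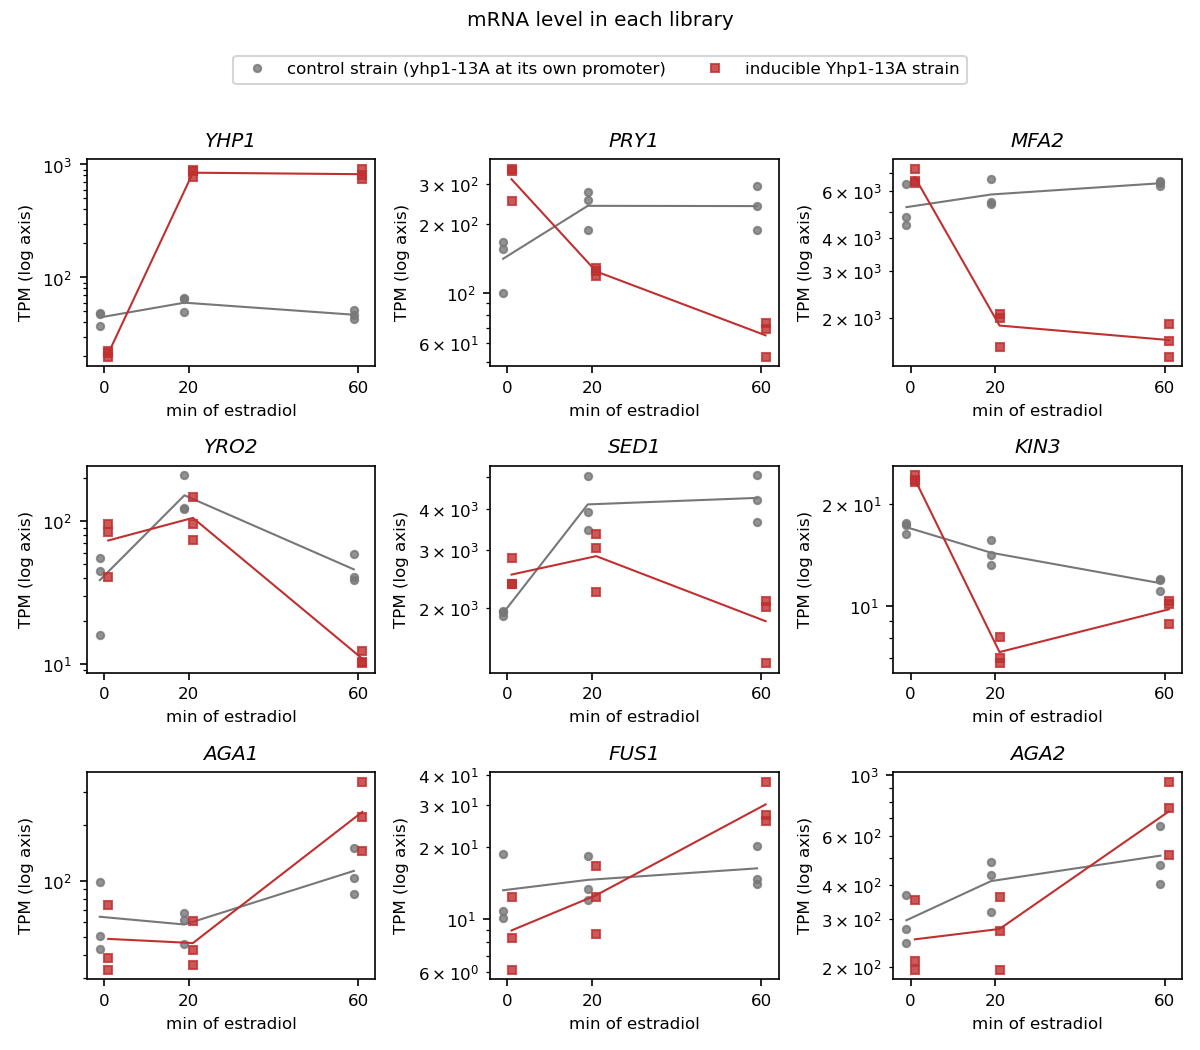
The 9 panels plot mRNA level in TPM on a log axis against min of estradiol for YHP1, PRY1, MFA2, YRO2, SED1, KIN3, AGA1, FUS1 and AGA2, with 1 point per library (grey circles for the control strain, red squares for the inducible strain, lines through the means of 3). PRY1, MFA2 and YRO2 end below every control library, and SED1 ends below its starting level while the control rises. AGA1 and FUS1 rise further in the inducible strain than in the control by 60 min, when AGA1 libraries of the 2 strains overlap.

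Mating genes split in direction. MFA2, a gene for the a-factor mating pheromone and one of the most abundant mRNAs here, fell from 6533, 7232 and 6430 to 1896, 1640 and 1436 TPM in the inducible strain. The control libraries held 4448, 6368 and 4792 TPM before and 6400, 6521 and 6251 TPM after, so the induced libraries lay far below all others. Its subtracted difference was -2.34 (SE 0.11, adjusted p = 5.81e-14). The second a-factor gene, MFA1, was called at -0.73 (SE 0.16, adjusted p = 0.0117), from 2251, 1928 and 1523 to 1611, 1434 and 1024 TPM, and its groups overlap. Without the block MFA1 lost its call (adjusted p = 0.986), and it also lost it when any of 4 single libraries was left out, with an adjusted p of at most 0.0715.

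AGA2, for the adhesive subunit of a-agglutinin and likewise a gene of the a type, rose. It went from 352, 211 and 196 to 944, 758 and 511 TPM in the inducible strain and from 368, 276 and 246 to 655, 470.5 and 402 TPM in the control. Both strains rose, the inducible one further, by a subtracted 0.78 (SE 0.11, adjusted p = 4.53e-05). Of the 7 a-specific genes 2 fell and 1 rose, beside 0.899% and 0.145% of all genes. STE2 at -0.02, STE6 at -0.13 and ASG7 at -0.14 were not called, and BAR1, at 0.51, passed the adjusted p but not the size threshold.

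Genes of the pheromone response made up 4 of the 9 that rose. AGA1, which anchors a-agglutinin in the cell wall, went from 74.6, 38.7 and 33.4 to 340, 219 and 144 TPM in the inducible strain. In the control strain AGA1 went from 99.03, 50.6 and 43.2 to 151, 104 and 85.2 TPM. Replicate 1 was the highest library of AGA1 in every group, and the highest control library at 60 min overlaps with the lowest induced one. The subtracted difference was 1.38 (SE 0.12, adjusted p = 1.3e-08), and without the block the adjusted p was 0.848.

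FUS1, needed for the fusion of mating cells, rose from 12.4, 8.36 and 6.13 to 37.5, 27.3 and 25.7 TPM in the inducible strain. In the control strain FUS1 held 18.7, 10.1 and 10.8 TPM before and 20.2, 14.7 and 14.0 TPM after. The 3 induced libraries were the highest of the 12, and the subtracted difference was 1.36 (SE 0.16, adjusted p = 2.6e-06). The 2 other calls were SST2, which desensitizes the pheromone receptor pathway, at 0.74, and FUS3, the MAP kinase of that pathway, at 0.71. SST2 went from 90.2, 55.4 and 55.8 to 148, 129 and 128 TPM with induction, and from 109, 63.1 and 64.7 to 102, 97.7 and 82.4 TPM in the control. Without the block the adjusted p was 0.191 for FUS1, 0.848 for SST2 and 0.914 for FUS3, and each kept its direction.

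Over the list of 12 pheromone-induced genes, 4 rose, 0 fell and the median was 0.38 against 0.05 for all genes, of which 0.145% rose and 0.899% fell. KAR4, a transcription factor of mating, lay just outside the threshold at 0.57, and PRM1 reached 0.48 (adjusted p = 0.014). FUS2 at 0.16, FIG1 at 0.27, FIG2 at 0.20 and PRM2 at 0.21 were above 0 without a call. FAR1, the cell cycle inhibitor of the pathway, was the only member below 0, at -0.14.

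The remaining higher genes were 5 in number. NCW2, a gene for a cell wall protein, was at 98.7, 75.9 and 100 TPM before and 122, 98.7 and 131 TPM after induction, with a subtracted 0.74. GPX2, for a glutathione peroxidase, lay at 0.59, just inside the threshold. YGR174W-A and YCR102W-A, open reading frames with no symbol in the files, were called at 0.83 and 1.44, and YCR102W-A did not pass 3.36 TPM in any of the 12 libraries. The fifth, AGA2, is described above.

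Of the 16 genes tested in the cell wall protein list, 5 fell and 0 rose, beside 0.899% and 0.145% of all genes, and the list median was -0.12 against 0.05. YGP1, for a secreted glycoprotein, went from 126, 161 and 190 to 49.7, 51.7 and 45.0 TPM in the inducible strain and from 69.5, 124 and 156 to 143, 170 and 154 TPM in the control. The induced libraries of YGP1 lay below all others, and its subtracted difference was -2.15 (SE 0.19, adjusted p = 1.3e-08). HSP150, for a mannoprotein of the Pir family, went from 1000, 1006 and 1236 to 536, 486 and 572 TPM, while the control held 876, 998 and 1134 TPM before and 1234, 1052 and 1460 TPM after. Its subtracted difference was -1.33 (SE 0.07, adjusted p = 2.9e-12), with no overlap between the induced libraries and the rest.

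SED1, a major structural protein of the wall, showed another pattern. In the inducible strain SED1 held 2842, 2372 and 2359 TPM before and 2018, 2093 and 1361 TPM after. In the control it went from 1885, 1945 and 1958 to 4235, 5041 and 3650 TPM. The subtracted difference of -1.64 (SE 0.13, adjusted p = 1.58e-09) thus combined a rise of 1.15 in the control with a value of -0.49 in the inducible strain. TIP1, a mannoprotein of the wall, went from 686, 802 and 681 to 206, 210 and 241 TPM with induction, where it fell, and from 556, 791 and 646 to 397, 399 and 545 TPM in the control. TIP1 had a subtracted -1.15, with an adjusted p of 1.24e-06 that became 0.434 without the block. SPI1, whose upstream letters are printed above, was called at -1.04 and had an adjusted p of 1 without the block. Its replicate 1 was low at 0 min in both strains, at 36.05 against 110 and 69.3 TPM in the inducible strain and at 24.1 against 75.9 and 66.9 TPM in the control. CWP1 at 0.34, CWP2 at -0.12, PIR1 at 0.14, CCW12 at -0.05 and CCW14 at 0.01 were not called.

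WSC4, a member of the Wsc family of cell wall sensors, fell from 24.6, 29.5 and 29.5 to 7.82, 6.63 and 6.83 TPM. The control stayed at 15.5, 22.1 and 21.8 TPM before and 17.8, 20.8 and 16.9 TPM after, and the subtracted difference was -1.75 (SE 0.14, adjusted p = 2.25e-09). It was the only one of 12 genes of the cell wall sensor and integrity list to be called, beside 0.899% of all genes called lower. Of 15 wall remodelling genes 2 fell, beside 0.899% of all genes. Both belong to the SUN family: UTH1 at -0.75 and NCA3 at -0.89. NCA3 went from 23.2, 21.9 and 21.2 to 8.49, 9.10 and 8.39 TPM in the inducible strain. UTR2, SCW4 and SCW10, at -0.49, -0.41 and -0.44, passed the adjusted p but not the size threshold. Also called lower were SKN1, which acts in the synthesis of beta-glucan, at -0.82 and CCW22, annotated as a pseudogene, at -0.81. CCW22 averaged 1525 TPM in the inducible strain and 964 TPM in the control at 0 min. Its strain difference at 60 min alone was -0.12, without a call, and the subtracted call was lost without the block.

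Of the 19 genes of the CLB2 cluster, which act in mitosis and cytokinesis, 5 were called lower and 0 higher, beside 0.899% and 0.145% of all genes, and the list median was -0.18 against 0.05. BNS1, a paralog of the mitotic exit gene SPO12, fell from 58.2, 79.0 and 88.0 to 22.3, 26.5 and 25.6 TPM in the inducible strain. In the control BNS1 went from 37.8, 58.5 and 54.2 to 36.3, 41.6 and 39.8 TPM, and the subtracted difference was -1.22 (SE 0.09, adjusted p = 1.58e-09). HOF1, for a protein of the cytokinetic ring, fell from 18.4, 16.03 and 17.1 to 4.55, 4.04 and 5.11 TPM. The HOF1 control values were lower at 60 min as well, without a call, going from 17.5, 12.8 and 15.5 to 8.94, 11.5 and 9.30 TPM, so that the subtracted value was -1.13 (SE 0.14, adjusted p = 9.98e-06). CLB1, for a mitotic cyclin, was called at -0.71, from 85.1, 87.5 and 89.4 to 43.3, 42.6 and 49.2 TPM. The kinase gene KIN3 was called at -0.69 and SPO12 at -0.64, the latter with an adjusted p of 0.294 without the block. The strain differences of KIN3 and SPO12 at 60 min alone were -0.24 and -0.41, both without a call.

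Of the 14 other members of that cluster 6 lay below 0 and 8 above. CLB2 at -0.20, the polo kinase gene CDC5 at 0.33, SWI5 at 0.16 and CDC20 at -0.41 were not called. Of 20 genes of mitotic exit only SPO12 and BNS1 were called, both lower, beside 0.899% of all genes. CDC14, CDC15, TEM1 and NET1 lay at 0.07, 0.05, -0.13 and -0.09. NDL1, for a regulator of the spindle motor dynein, lies outside the list. It fell from 19.8, 22.6 and 20.6 to 4.82, 4.19 and 5.84 TPM against 16.2, 15.3 and 15.8 before and 11.8, 13.1 and 12.9 TPM after in the control, a subtracted -1.59 (SE 0.12, adjusted p = 6.05e-10).

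The genes for which early cell cycle boxes are best known moved little. Of the 6 genes on a list of them 1 was called lower, beside 0.899% of all genes. All 6 lay below 0, against 2267 of all 6227 genes, with a median of -0.12 against 0.05 for all genes. MCM7, a subunit of the replicative helicase, was the only one of 15 pre-replicative complex genes to be called, at -0.58 (SE 0.08, adjusted p = 4.12e-05), the call nearest to the threshold. It went from 41.1, 39.5 and 44.6 to 21.6, 19.5 and 25.2 TPM in the inducible strain and from 42.3, 36.8 and 40.7 to 28.9, 33.0 and 34.1 TPM in the control. The groups of the inducible strain do not overlap, and without control replicate 2 at 60 min the value was -0.53, under the size threshold. MCM2 at -0.49 and MCM4 at -0.39 passed the adjusted p but not the size threshold, MCM5, MCM6 and MCM3 lay at -0.27, -0.13 and -0.01, and CDC6, the loader of that helicase, at -0.01. The median over the 15 genes was -0.01.

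All 21 genes of the G1/S list lay below 0, against 2267 of all 6227 genes. The list median was -0.17 against 0.05 for all genes. Only YOX1 was called, beside 0.899% of all genes called lower. YOX1, the paralog of the induced gene, went from 53.3, 44.6 and 57.1 to 36.6, 34.3 and 36.8 TPM in the inducible strain. In the control YOX1 was 52.8, 47.8 and 57.9 TPM before and 63.0, 49.3 and 63.9 TPM after, so the induced libraries were the lowest. Its subtracted difference was -0.65 (SE 0.10, adjusted p = 6.04e-05), and without the block the adjusted p was 0.299. MSA1, for an activator of G1/S transcription, was called at -0.66. The 8 core histone genes all lay below 0 with a median of -0.14 and 0 calls. None of the 5 condensin genes was called, and their median was -0.03.

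Genes of storage and nutrient metabolism were called 1 or 2 to a list. PHO3, for an acid phosphatase, fell from 203, 168 and 142 to 45.1, 41.6 and 39.3 TPM, against 176, 172 and 124 TPM before and 159, 194 and 148 TPM after in the control. The induced libraries lay below all others, with a subtracted -2.08 (SE 0.14, adjusted p = 7.42e-11). PHO3 was the only one of 10 genes of the phosphate list to be called, beside 0.899% of all genes called lower. Its close relative PHO5 lay at -0.34. Per the study's methods the authors counted only fragments above a minimum mapping quality, a filter that removes reads placed at several sites, so reads from stretches that such paralogs share are not in these values. PIG1, for a protein that brings the phosphatase Glc7 to glycogen synthase, went from 5.71, 6.70 and 8.37 to 2.93, 3.15 and 3.11 TPM while the control went from 5.38, 4.45 and 5.97 to 8.05, 7.69 and 9.15 TPM. The subtracted value of PIG1 was -1.52 (SE 0.12, adjusted p = 1.82e-09).

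Some calls in carbon storage were lost when single libraries were left out. TSL1, for a trehalose synthase subunit, held 14.4, 132 and 112 TPM in the inducible strain and 7.45, 88.8 and 103 TPM in the control before estradiol. Replicate 1 was likewise low in both strains at 0 min for GLK1, a glucokinase, with 69.6 against 268 and 248 TPM in the inducible strain, and for GSY1, a glycogen synthase, with 4.98 against 39.4 and 28.6 TPM. TSL1, GLK1 and GSY1 were called at -0.80, -0.89 and -0.75. Without the block all 3 had an adjusted p of 1, and without control replicate 1 at 0 min the values were -0.59, -0.67 and -0.60 with adjusted p of 0.1, 0.0593 and 0.0693. Over the 12 libraries left out in turn, at 0 or at 60 min, TSL1 lost its call for 7, GSY1 for 5 and GLK1 for 3, with adjusted p of at most 0.1. Of 12 glycogen genes 2 fell, and of 15 stress genes 1 fell, beside 0.899% of all genes. The list medians were -0.17 and -0.31 against 0.05 for all genes.

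Among transporters, TPO3, which exports polyamines, was called at -1.36, from 53.8, 73.8 and 71.2 to 22.3, 26.4 and 29.7 TPM. The biotin transporter VHT1 was called at -0.96, the thiamine transporter THI7 at -0.65, and the siderophore transporters ARN1 and ENB1 at -0.75 and -0.64. ARN1 and ENB1 were the only calls among 14 iron uptake genes, beside 0.899% of all genes called lower. Replicate 3 was the highest library of both in all 4 groups, for ENB1 at 312 against 71.8 and 168 TPM in the inducible strain at 0 min. VHT1, THI7, ARN1 and ENB1 had an adjusted p of 1 without the block. THI7 rose by 0.96 in the control, stood at 0.32 in the inducible strain, where it was not called, and was the only gene of the 56 whose value in the inducible strain was above 0. No gene was called among 7 hexose transporters, 10 genes of fatty acid synthesis, 14 of ribosome biogenesis or 138 of ribosomal proteins, whose medians were -0.10, -0.04, 0.07 and 0.07.

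The calls were not all separate loci. Of the 65 called genes 13 stood in 7 pairs of adjacent genes, all lower, and 4 of these pairs shared an upstream region. The share of divergent pairs among all adjacent genes was not counted, nor the number of pairs to be had from any 65 genes. The counts are therefore a description only. EIS1, an eisosome protein, and HOF1 diverge from 554 bases on chromosome XIII and were called at -0.85 and -1.13. TPO3 and TDA6 diverge from 1488 bases on chromosome XVI, at -1.36 and -1.64, and SPS4 and YOR314W from 168 bases on chromosome XV, at -0.86 and -0.92. YNL146C-A and YNL146W diverge from 134 bases on chromosome XIV, and MFA2 follows YNL146W after 396 bases, with values of -2.15, -0.72 and -2.34. SPO12 and SPO16 converge on chromosome VIII with 130 bases between them. The sources used here do not say whether the counting used strand, and reads that run from a gene into such a close neighbour cannot be told apart from the neighbour's own.

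One further call has little signal behind it. The glycine tRNA gene tG(GCC)E was called at -2.07 (SE 0.50, adjusted p = 0.0188), with 4.46, 4.70 and 4.53 TPM before and 2.58, 3.51 and 1.56 TPM after induction. Its control libraries held 0, 2.33 and 1.51 TPM before and 3.07, 4.53 and 5.68 TPM after. tRNA genes are near-identical copies of each other, and with the filter on mapping quality few reads can be placed on any one of them, so this value is uncertain.

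**Figure D2:**
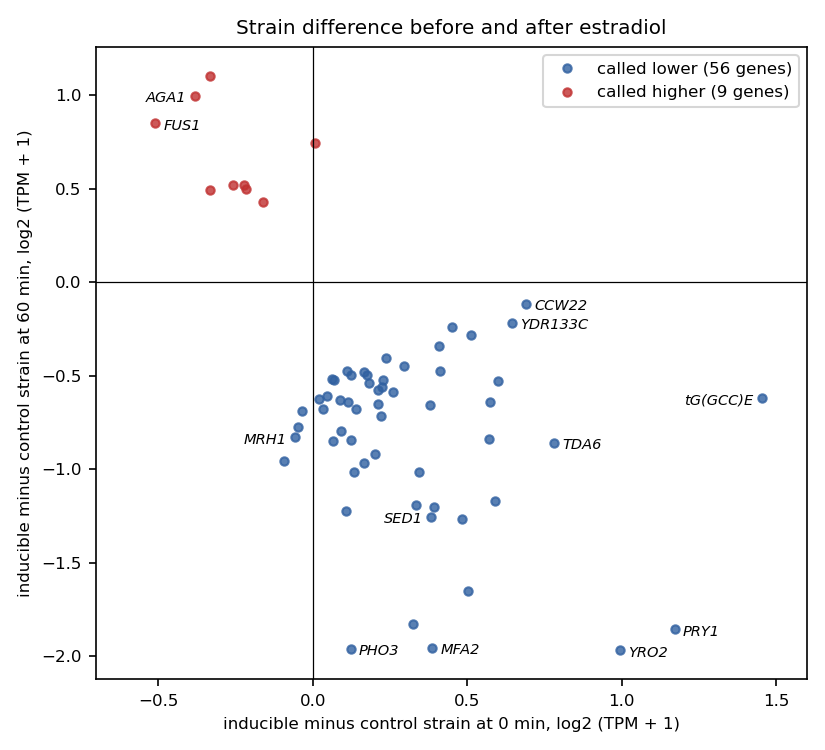
Each point is 1 of the 65 called genes, with the difference between inducible and control strain at 0 min on the x axis and at 60 min on the y axis, both on log2 (TPM + 1). The 56 lower genes (blue) lie below 0 at 60 min and mostly to the right of 0 at 0 min, and the 9 higher genes (red) lie above 0 at 60 min and mostly to the left.

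The subtracted differences were in part differences that existed before estradiol. At 0 min 52 of the 56 lower genes were above 0 in the inducible strain relative to the control, with a median of 0.22, and 8 of them were called, against 16 genes called higher at 0 min among all 6227 (0.257%). Of the 9 higher genes 8 were below 0 at 0 min, with a median of -0.26 and 0 calls, beside 5 genes called lower at 0 min in all (0.0803%). PRY1 was above the control by 1.17 and YRO2 by 0.99 at that time, when YHP1 mRNA was lower in the inducible strain by 1.02. These 0 min libraries also enter the subtracted difference, so the opposite signs are not independent of it. At 60 min all 56 lower genes were below the control, with a median of -0.67 and 36 calls, beside 41 genes called lower at 60 min in all (0.658%). All 9 higher genes were above the control at 60 min, with a median of 0.52 and 4 calls among 12 in all (0.193%). The 60 min difference is likewise a component of the contrast that chose these genes, so its direction is fixed in part by that choice.

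Read without the control, the change within the inducible strain had the same sign for 55 of the 56 lower and all 9 higher genes, and it was called for 40 and 5 of them, while 3.63% of all genes were called lower and 3.57% higher. The 3 induced libraries lay below all 3 libraries of 0 min for 45 of the 56 lower genes, against 19.2% of all genes, and above them for 6 of the 9 higher genes, against 24.5%. The calls used these same libraries, so these counts describe the called genes and are not separate evidence. The control strain moved the opposite way for 30 of the 56 and 5 of the 9, and this was called for 4 and 0, while 3.16% of all genes were called higher and 4.1% lower in the control. SED1, given above, is one of those with a rise in the control.

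**Figure D3:**
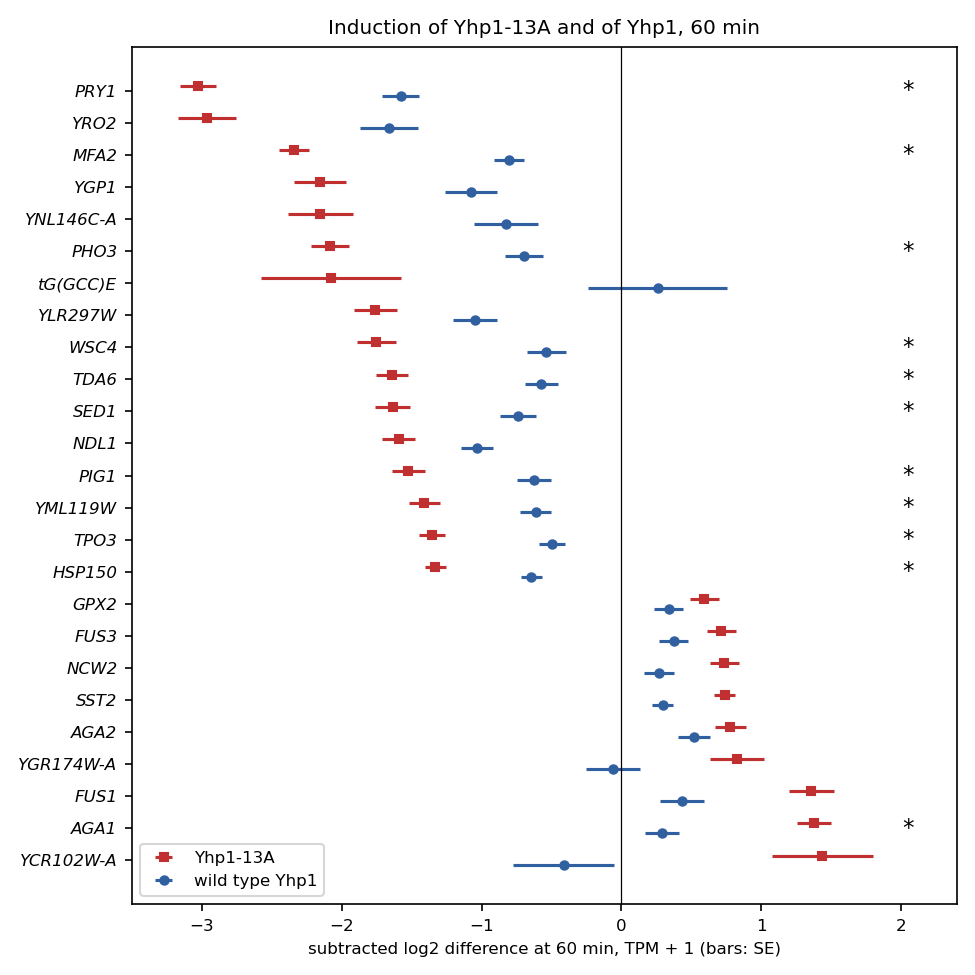
The subtracted log2 difference at 60 min (x axis, TPM + 1, bars 1 SE) for the 16 genes furthest below 0 and the 9 higher genes, with Yhp1-13A as red squares and wild type Yhp1 as blue circles. Asterisks mark genes whose difference between the forms was called: PRY1, MFA2, PHO3, WSC4, TDA6, SED1, PIG1, YML119W, TPO3 and HSP150 lie further below 0 with Yhp1-13A and AGA1 further above.

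The forms with and without the Cdk1 sites differed for 14 genes, among them MFA2, PRY1 and AGA1. Wild type Yhp1, induced in the same way in its own inducible and control strains, gave 23 lower genes (0.369%) and 0 higher ones at 60 min, with 830 of 6230 at an unadjusted p under 0.05. Of these 23, 17 were also among the 56, which is 17 of 56 the other way. The difference between the forms was tested in the same fit, from libraries that do not overlap between the forms: 13 genes were lower with Yhp1-13A (0.209%) and 1 was higher (0.0161%), 324 having an unadjusted p under 0.05. Of the 56 lower genes 12 were called further below 0 with Yhp1-13A, and 55 of the 56 had a difference below 0, with a median of -0.47. The 56 were chosen for low values with Yhp1-13A, which enter this difference, so its sign over the 56 follows in part from the choice. YHP1 mRNA itself reached 5.12 with the mutant and 4.93 with the wild type form. By the paper's protein blots, the phosphosite mutants were more abundant after induction than the wild type forms. Whether protein level has a part in the 14 differences was not tested.

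MFA2 had the widest called difference between the forms among the 56, with -2.34 for Yhp1-13A and -0.80 for Yhp1, a difference of -1.54, and it was the only one of these calls that held without the block (adjusted p = 0.00214). PRY1 stood at -3.03 and -1.58 (difference -1.45), PHO3 at -2.08 and -0.69 (difference -1.39) and WSC4 at -1.75 and -0.54 (difference -1.22). TDA6, SED1, TIP1, PIG1, TPO3, BNS1, YML119W and HSP150 had called differences between -1.07 and -0.68. AGA1 was the gene called higher, with 1.38 for Yhp1-13A and 0.29 for Yhp1, a difference of 1.09. YRO2 at -1.30, YGP1 at -1.08 and the low tRNA gene tG(GCC)E at -2.33 had differences without a call. The thirteenth lower gene was a phenylalanine tRNA gene, tF(GAA)D, with a mean of 2.22 TPM, which was not among the 56.

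**Figure D4:**
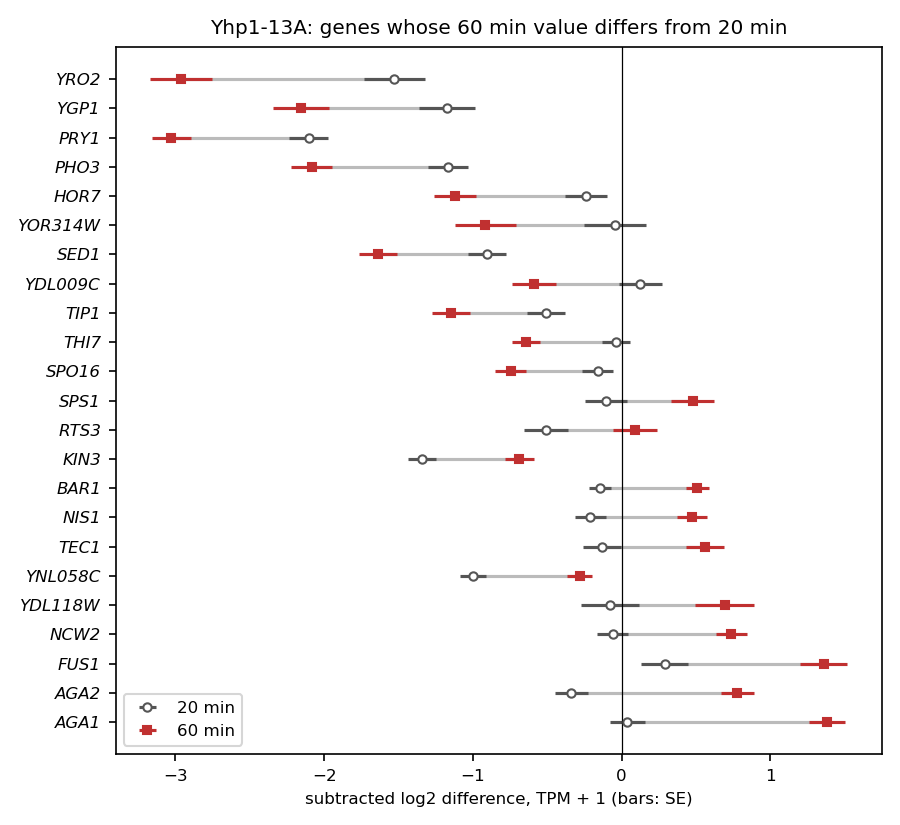
The subtracted log2 difference of Yhp1-13A (x axis, TPM + 1, bars 1 SE) at 20 min (open circles) and 60 min (red squares) for the 23 genes whose 60 min value was called different from that at 20 min. YRO2, YGP1, PRY1 and PHO3 moved further below 0, and KIN3 moved back towards 0. AGA1, AGA2 and NCW2 moved from about 0 or below to above it, and FUS1 moved further above 0.

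The value at 60 min differed from that at 20 min for 23 genes, among them PRY1, YRO2 and AGA1. At 20 min 37 genes were lower (0.594%) and 1 higher (0.0161%), and 30 of the 56 lower genes and 0 of the 9 higher ones were called then. The values at both times share the 0 min libraries, which cancel in the difference between them. That difference was called below 0 for 11 genes (0.177%) and above 0 for 12 (0.193%), with 832 genes at an unadjusted p under 0.05. Without the block 0 genes passed in either direction, 198 had an unadjusted p under 0.05, and the smallest adjusted p was 0.0932, for KIN3.

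All 11 genes that moved further down were among the 56, led by YRO2, whose value went from -1.53 at 20 min to -2.96. YGP1 went from -1.17 to -2.15, PRY1 from -2.10 to -3.03, PHO3 from -1.16 to -2.08 and HOR7 from -0.24 to -1.12. YRO2, YGP1, PRY1 and PHO3 were called lower at 20 min already, and HOR7 was not. MFA2, by contrast, had reached 2002, 2066 and 1564 TPM by 20 min, its value moved by only -0.32 after that, and this was not called.

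The 12 genes that moved up were led by mating genes. AGA1 went from 0.04 at 20 min to 1.38, AGA2 from -0.34 to 0.78 and FUS1 from 0.29 to 1.36, and none of these was called at the earlier time. AGA1 held 61.0, 42.9 and 35.5 TPM in the inducible strain at 20 min, close to its values at 0 min. FUS1 held 16.7, 12.4 and 8.69 TPM then, each somewhat above the same-numbered library at 0 min. TEC1, for a transcription factor of filamentous growth, and BAR1, for the protease that degrades alpha-factor, were called in this difference at 0.69 and 0.66 without being called at 60 min itself. KIN3 went from -1.34 to -0.69. Its libraries held 8.10, 7.001 and 6.75 TPM at 20 min and 8.82, 10.1 and 10.3 TPM at 60 min in the inducible strain.

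The corresponding form of the paralog, Yox1-9A, changed many more genes under the same design in a second table, 222 lower (3.58%) and 145 higher (2.34%) of 6206 at 60 min. Of the 56 genes lowered by Yhp1-13A 49 were also lowered by Yox1-9A, which is 49 of the 222, and their median with Yox1-9A was -1.80. Both tables were fitted together to test the difference between the proteins. Yhp1-13A values were called higher than those of Yox1-9A for 141 genes (2.27%) and lower for 49 (0.79%), with 830 of 6209 genes at an unadjusted p under 0.05, and the counts were 89 and 6 without the block.

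Of the 56, 26 fell less with Yhp1-13A than with Yox1-9A. MCM7 differed most among them, at -0.58 with Yhp1-13A and a difference of 4.16, followed by MFA2, at -2.34 and -5.75, a difference of 3.41, and TIP1, with a difference of 2.97. PRY1 stood at -3.03 and -4.09, a difference of 1.06. YOX1, the only one of the 56 called further below 0 with Yhp1-13A, is the induced gene of the other strain. Of the 9 higher genes 4 were also called with Yox1-9A, which is 4 of 145, and AGA1 reached 2.86 there. YRO2 stood at -2.96 and -3.83, a difference of 0.87 that was not called.

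The values nearest to the threshold show how the count depends on it. MCM7 at -0.58, YDL009C at -0.59 and GYP6 at -0.59 lay just inside below 0 and GPX2 at 0.59 above it. SFG1 at -0.58, KAR4 at 0.57, HSP42 at -0.57, ELO1 at -0.56, TEC1 at 0.56 and ACM1 at -0.56 passed the adjusted p and lay just outside.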

How the data were processed

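RNA from asynchronous cultures was sequenced, and per the labels the authors used STAR 2.5.3a for alignment (genome build R64) and featureCounts 1.5.2 for counting, which kept fragments above a minimum mapping quality. The deposited values used here are TPM, which the authors scaled to gene length and library total, so depth is unknown. The labels speak of polyA depletion and the methods of poly-A purification. Groups came from the labels, which give 3 replicates per group and do not say what cultures they came from, so p-values measure the spread between these libraries.

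The table of 6865 genes held 36 libraries in 12 groups, and 5938 IDs matched the RefSeq annotation of R64. The 6230 genes whose mean over these libraries reached 1 TPM were tested on log2(TPM + 1), which understates changes of low genes, with limma 3.58.1 in R 4.3.3, a mean trend in the variance, a block for replicate number within each time and 18 residual degrees of freedom. Changes within a strain came from the fit without the block. The Yox1-9A comparison fitted both tables together (6209 genes). Same-numbered inducible and control libraries deviated together, with correlations across genes of 0.760, 0.604 and 0.673 at 0 min and 0.452, 0.379 and 0.644 at 60 min, so the numbers were taken to pair the libraries within a time. The script was tested on simulated data. The genes named are the called genes furthest from 0, the members of the lists and those nearest to the threshold. The members and all 24 lists were chosen with earlier results of these data known. The alternatives were other pseudocounts, filters, scaling, libraries and fits. One gene and a list named for it are not reported here.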

Additional observations from a re-analysis of the deposited data

Results flagged for a closer look

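The induction of Yhp1-13A at 60 min differed from that of wild type Yhp1, by a test of the difference itself, most widely for tF(GAA)D (-2.71, SE 0.51, adjusted p = 0.012), MFA2 (-1.54), PRY1 (-1.45), PHO3 (-1.39) and WSC4 (-1.22) below 0 and for AGA1 (1.09) above. Of these only MFA2 was called without the replicate block.

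Its value at 60 min differed from that at 20 min, by limma with Benjamini-Hochberg adjustment, most widely for YRO2 (-1.43), YGP1 (-0.98), PRY1 (-0.92), PHO3 (-0.92) and HOR7 (-0.88) below 0. Above 0 stood YDL118W (0.77), NCW2 (0.80), FUS1 (1.07), AGA2 (1.12) and AGA1 (1.34).

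Against Yox1-9A the widest differences below 0 were those of YOX1 (-5.35), the gene induced in the other strain, TIR1 (-2.05), RTC3 (-1.90), CWP1 (-1.74) and CYC7 (-1.61). Above 0 they were those of TIP1 (2.97), MFA2 (3.41) and the helicase genes MCM3 (3.54), MCM7 (4.16) and MCM5 (4.20). Groups of 3 libraries are too small for a search for single outlying libraries.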

How the results depend on the processing

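Without the replicate block 29 genes fell and 0 rose at 60 min. Also without it, 1 gene was called lower and 0 higher than with wild type Yhp1, and 0 and 0 differed between 60 and 20 min. Against Yox1-9A, 6 genes then had a lower value and 89 a higher one, whichever way each gene moved. Of the 67 genes called with HO and YHP1 included, 31 held their call without the block and 36 did not. A pseudocount of 5 left 7 genes lower at 60 than at 20 min, and 54 of the 67 calls. Leaving out 1 library at a time gave 50 to 61 lower and 7 to 15 higher genes, the last without inducible replicate 2 at 0 min, and 16 genes lost their call at least once. Shifting the libraries to a common median moved the subtracted differences by at most 0.04 and gave 64 lower and 9 higher genes. The strain difference at 60 min without the 0 min libraries, an alternative chosen after seeing the data, held 42 of the 67. No direction reversed under any setting run. Depth is unknown, so a gene listed at 0 may be below what could be seen.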
